A study of Mus musculus with 9 samples.

Results

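Primary tumours of the mouse mammary carcinoma lines 4T1 and 67NR were compared across all genes on the array. The comparison takes the arrays whose titles begin with 4T1 or 67NR, 3 of each, so 6 of the 9 arrays of the series. The other 3 came from tumours of the third line, 66cl4, and served for the estimate of the spread and as a reference level for single genes. Each array held the RNA of 1 tumour from 1 female BALB/c mouse aged 7 to 9 weeks. In the labels the transplanted cells are 67NR/CMVLUC, 66cl4/CMVLUC and 4T1/CMVLUC, and 1000000 viable cells were placed in the fourth mammary gland on the right side. All mice received the same number of cells, and the tumours were taken at day 15. Sections were laser-captured, and RNA came from the tumour part. For 2 of the 67NR arrays the sample labels carry no tissue tag, and the design text of the series gives the tissue.

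The 3 lines descend from one mouse mammary tumour. 67NR cells form tumours at the injection site and are used as the line that does not metastasise, whereas 4T1 cells spread to distant organs, so the pair is a common model of tumours of one origin that differ in spread. Epithelial cells hold together through adherens junctions, desmosomes and tight junctions, and rest on a basement membrane of laminin, collagen IV and nephronectin. Loss of these contacts, a switch between cadherins and a change in the factors that a tumour secretes to blood vessels and immune cells are the features usually followed in this model. The tumours are transplants of established lines in a host of the same strain, 1 line stands for each behaviour, and captured tissue can hold host cells.

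Each gene was represented by its brightest probe set, and 13409 of 18193 genes lay above the 40th percentile of their array on at least 3 arrays and were tested with limma over all 9 arrays. At a Benjamini-Hochberg adjusted p under 0.05, 39.9% of the genes tested were called, 19.4% with the higher and 20.5% with the lower level in 4T1, and the 3 values per line did not overlap for 49.7%. The median log2 difference (4T1 minus 67NR) over all genes tested was -0.03. Of the called genes, 934 were higher and 882 lower by at least 2-fold, and 162 and 72 by at least 8-fold. The scan file numbers of the 3 67NR arrays all lay above those of the 3 4T1 arrays, and the mean log2 signal of the hybridization controls was 10.87 to 11.47 on 67NR and 10.30 to 10.72 on 4T1 arrays. Line and file number can therefore be separated only in part. With the file number as a covariate 2401 of the 5347 calls were kept, and 223 of the 234 of at least 8-fold. With the hybridization controls as a covariate 2088 and 221 were kept. Genes named below whose call was lost with the file number are given as such, and the part of the file number in any result was not tested beyond these fits.

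Levels are deposited log2 signals, given as arrays 1, 2 and 3 of a line, and differences are on the same scale, followed by the fit's standard error (SE, n = 3 per line). Signals of different genes come from different probe sets and are not set against each other. Bacterial control probe sets, which match no mouse transcript, reached 4.83 to 5.08 depending on the array. A gene that no array of a line puts above its control maximum is called not above background there, and its fold is then a lower bound. The bound sets the mean of the brighter line against the mean, per array, of the highest control probe set. The lists below draw on textbook knowledge but were chosen with earlier results of these data known. A member that passed the signal filter only through the line in which it was bright had to differ. Counts over tested members are therefore descriptions, to be read beside the shares over all genes tested. In bulk tissue, fewer cells of a type and less RNA per cell cannot be told apart. The epithelial label was checked first: Krt18, a keratin of simple epithelia, stood at 4.22, 5.29 and 4.80 in 67NR tumours and at 13.50, 13.31 and 13.34 in 4T1 tumours, so this defining epithelial marker was near background in the tumours of 67NR, a carcinoma line. Of 9 tested keratins 5 were higher and 1 lower in 4T1, and Krt7, of simple epithelia, was at least 76.6-fold higher.

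Desmosome genes were nearly all higher in 4T1 tumours. Of 11 tested members, from 12 measured, 9 were higher and 1 lower in 4T1 tumours, against 19.4% and 20.5% of all genes tested, and the median difference of the list was 2.13. Desmoplakin, Dsp, which ties desmosomes to keratin filaments, read 3.33, 3.19 and 3.00 on the 67NR arrays and 9.46, 8.87 and 9.44 on the 4T1 arrays. The groups lay far apart, with 67NR not above background, and Dsp was at least 19.9-fold higher in 4T1 (6.08 ± 0.17, SE, limma adjusted p = 1.4e-08). The desmosomal cadherin gene Dsg2 was at least 22-fold higher, although its other probe sets gave differences of 0.77 to 4.89. Perp, a tetraspan protein of desmosomes that p53 and p63 can induce, was at 3.43, 3.32 and 3.19 in 67NR and at 9.99, 9.38 and 9.82 in 4T1 tumours. Junction plakoglobin, Jup, which serves both desmosomes and adherens junctions, was well above background in both lines and higher in 4T1 by 2.13 ± 0.18 (adjusted p = 1.73e-05). Plakophilin 2, Pkp2, was at least 8.54-fold higher than in 67NR, and its 66cl4 mean of 8.04 lay within the 4T1 values of 8.05, 8.16 and 7.90. For Dsp, Dsg2 and Perp the 66cl4 means were 3.54, 3.81 and 3.47, as low as in 67NR. The calls of Dsc2 and Pkp1 were lost with the file number as a covariate, as was that of Pkp4, the 1 lower member (-0.36). Without array 1 or 2 of either line Pkp4 lost its call as well, at -0.35 to -0.32.

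Tight junctions seal the space between epithelial cells. Of 22 tested members of the tight junction and polarity list, from 25 measured, 14 were higher and 2 lower in 4T1, with a median of 1.33. Claudin 4, Cldn4, was at 5.46, 5.77 and 5.53 in 67NR and at 12.11, 11.46 and 10.75 in 4T1 tumours, a 57.8-fold difference (adjusted p = 5.89e-07). Claudin 7, Cldn7, read 10.81, 10.20 and 9.83 in 4T1 and was at least 40.5-fold higher, while Cldn3 was higher by 3.39 ± 0.12. Lsr, which recruits tricellulin to the points where 3 cells meet, was at 7.19, 7.16 and 7.28 against 10.24, 9.85 and 9.74, and tricellulin itself, Marveld2, was at least 3.63-fold higher. Each of these genes had its 4T1 values above every 67NR value. The 2 lower members were Cldn9 and Tjp1. Cldn9 was at 7.42, 6.91 and 7.80 in 67NR and not above background in 4T1, at least 5.28-fold lower, and its 66cl4 mean was 9.44. The endothelial claudin Cldn5 is kept in the endothelial list and was lower in 4T1, by -2.14 ± 0.30. Tjp1, the scaffold ZO-1 that epithelial and endothelial junctions share, was at 10.54, 10.54 and 10.39 against 9.71, 9.47 and 9.31. Occludin, Ocln, and Tjp3 were higher by 0.63 and 0.70, and both calls were lost with the file number.

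The E-box letters CAGGTG, read as CACCTG on the other strand, are bound by the Zeb and Snai repressors. Promoters of the junction genes Cldn4 and Lsr and of the keratin gene Krt8 are shown with these letters. Krt8 was at 6.70, 6.94 and 6.58 in 67NR and at 13.47, 13.29 and 13.69 in 4T1 tumours, with a 66cl4 mean of 13.01. The sequences are the 250 bases before the annotated start, from RefSeq on build GRCm38.p6, written 5′ to 3′ in the direction of the gene with E-boxes in capitals. Cldn4 lies at chr5:134946935-134947184, minus strand. Krt8 lies at chr15:102004343-102004592, minus strand. Lsr lies at chr7:30973470-30973719, minus strand.
Cldn4: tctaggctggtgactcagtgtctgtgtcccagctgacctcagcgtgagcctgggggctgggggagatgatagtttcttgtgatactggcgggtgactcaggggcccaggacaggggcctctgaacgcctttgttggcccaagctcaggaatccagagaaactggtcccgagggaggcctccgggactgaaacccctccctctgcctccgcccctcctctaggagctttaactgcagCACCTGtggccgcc
Krt8: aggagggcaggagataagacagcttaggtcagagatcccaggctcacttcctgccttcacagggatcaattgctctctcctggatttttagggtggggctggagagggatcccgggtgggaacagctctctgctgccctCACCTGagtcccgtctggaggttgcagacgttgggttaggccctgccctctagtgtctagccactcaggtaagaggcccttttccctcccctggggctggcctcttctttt
Lsr: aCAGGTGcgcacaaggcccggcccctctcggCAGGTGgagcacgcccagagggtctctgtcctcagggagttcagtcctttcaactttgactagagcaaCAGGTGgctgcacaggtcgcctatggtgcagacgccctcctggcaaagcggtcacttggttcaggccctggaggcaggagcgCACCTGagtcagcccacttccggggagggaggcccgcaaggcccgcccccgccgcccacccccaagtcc

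The Cldn4 window has 1 E-box that begins at -14 from the start, the Krt8 window 1 that begins at -111, and the Lsr window 4. Promoters were matched by symbol for 10754 of the 13409 genes tested, and 18.9% of these held the letters on either strand. The share was 23.1% among genes higher in 4T1 and 17% among genes lower. Among genes higher by at least 8-fold it was 40 of 106, or 37.7%, and among genes lower by at least 8-fold 8 of 49, or 16.3%. In the tight junction list 11 of 17 matched members held the letters, or 64.7%, and 9 of those 11 were higher in 4T1, with a median of 1.26. Of the 6 without the letters 3 were higher and 1 lower, with a median of 2.01. In the whole promoter table the share was 19.4%. A match describes the sequence and is not evidence of a bound factor.

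Membrane-anchored serine proteases of epithelia, and the inhibitors that hold them in check, were higher together with the junction genes. Of 12 tested members, from 14 measured, 9 were higher and none lower, with a median of 3.53, and all 9 calls were kept with the file number. Matriptase, St14, a protease that activates other proteases at the cell surface, read 5.85, 5.79 and 5.85 in 67NR and 9.94, 9.72 and 9.32 in 4T1 tumours. Its inhibitor Spint1 was at 5.03, 4.91 and 4.87 against 9.29, 9.15 and 9.04, and the related Spint2 was higher by 3.45 ± 0.20. Protease and inhibitors thus stood higher in the same tumours. Prss22 was at 6.81, 7.66 and 7.54 against 11.08, 11.44 and 11.87, 17.5-fold higher. Wfdc2, a secreted protein with a whey acidic protein fold, was at 4.56, 4.79 and 5.18 in 67NR and at 13.02, 12.99 and 12.89 in 4T1 tumours. Tmprss11e, a transmembrane serine protease, was at least 28.7-fold higher. Maspin, Serpinb5, a serpin of mammary epithelium, was at least 5.97-fold higher, with 67NR not above background. In 66cl4 the means of St14, Spint1 and Serpinb5 were 5.24, 5.01 and 4.12, again at the 67NR level.

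Epithelial regulators showed both directions. Of 12 tested members, 9 were higher and 1 lower. Esrp1, which directs epithelial splicing, was at 3.54, 3.44 and 3.28 in 67NR and at 9.68, 9.37 and 9.22 in 4T1 tumours, at least 22.3-fold higher. Gata3, a luminal transcription factor of the mammary gland, was higher by 2.22 ± 0.12 and Klf5 by 2.78 ± 0.20. Klf4, a related factor of epithelial differentiation, went the other way, from 10.06, 9.97 and 9.91 in 67NR to 7.25, 8.03 and 7.93 in 4T1 tumours. Grhl2, which maintains junction genes, was higher by 2.28 on its brightest probe set, while its other probe sets gave 0.06 to 0.10. The calls of Esrp2, Foxa1 and Tfap2a were lost with the file number, as was that of Elf3, which also lost it without array 2 of 67NR (0.59).

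Basement membrane genes were called in both directions. In the laminin and basement membrane list 6 of 18 tested members were higher and 5 lower. These shares, 33.3% and 27.8%, were not far from the 19.4% and 20.5% of all genes tested. The chains of the laminin under epithelia were high in 4T1: Lama3 read 9.13, 9.15 and 8.98 and Lamb3 9.43, 9.52 and 8.62, and both were not above background in 67NR. The bounds were at least 17.7-fold for Lama3 and at least 19-fold for Lamb3. Their receptor subunit, integrin Itgb4, was at 5.63, 6.53 and 5.85 in 67NR and at 10.18, 9.16 and 9.43 in 4T1 tumours. Nephronectin, Npnt, read 3.42, 3.44 and 3.43 against 10.83, 10.28 and 10.47, and its other probe sets gave differences of 2.01 to 6.27. The collagen IV chains Col4a1 and Col4a2, which vessels also make, were lower in 4T1 by -1.14 ± 0.13 and -1.45 ± 0.13, and their 66cl4 means of 11.49 and 10.42 lay near the 4T1 level.

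Among 14 tested cadherin and catenin genes 4 were higher and 3 lower, and the classical pair had the widest differences. The shares of the list, 28.6% and 21.4%, were not far from the 19.4% and 20.5% of all genes tested. E-cadherin, Cdh1, which holds epithelial cells together, was at 3.99, 4.37 and 3.92 in 67NR, not above background, and at 10.91, 10.76 and 11.11 in 4T1 tumours, at least 63.4-fold higher. N-cadherin, Cdh2, of nerve and mesenchymal cells, was at 10.51, 10.76 and 10.50 against 3.33, 5.16 and 4.26, 80.8-fold lower, with 1 of the 3 4T1 values above background. In 66cl4 the means were 4.27 for Cdh1 and 9.59 for Cdh2, near the 67NR values. The other cadherins did not all follow this order. Cadherin 11, Cdh11, usually a mesenchymal cadherin, was not above background in 67NR at 4.92, 3.84 and 4.39 and stood at 8.53, 9.65 and 8.65 in 4T1 tumours, at least 16-fold higher (4.56 ± 0.57, adjusted p = 0.000181). Its 66cl4 mean was 6.44, between the other lines. T-cadherin, Cdh13, which is held by a lipid anchor and is also made by vessels, was lower by -1.65 ± 0.16, and VE-cadherin, Cdh5, which is kept in the endothelial list, by -2.11 ± 0.14. P-cadherin, Cdh3, was at 5.26 to 5.51 in 4T1 and 5.42 to 5.56 in 67NR tumours and was not called (adjusted p = 0.619).

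Protocadherins, cadherin relatives that sort cells during development, were lower throughout their called members. Of 8 tested, from the list of protocadherins outside the clustered arrays, 7 were lower and none higher, with a median of -1.70. Pcdh7 fell from 7.81, 8.31 and 8.73 in 67NR to 3.63, 4.51 and 4.01 in 4T1 tumours, where it was not above background, at least 9.92-fold lower. Pcdh19 was at 9.11, 9.09 and 8.86 against 5.54, 6.04 and 6.15. The 66cl4 means were 3.57 for Pcdh7 and 9.93 for Pcdh19, so the third line sided with 4T1 for the one and with 67NR for the other. Pcdh9 was not above background in 4T1 and at least 2.19-fold lower. The call of Pcdh18 was lost with the file number.

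Caveolae, small pits of the plasma membrane, are built from caveolins and cavins. Of 6 tested genes 5 were lower in 4T1 and none higher, with a median of -1.63, and all 5 were kept with the file number. Cav1 was at 12.20, 11.96 and 12.25 in 67NR and at 8.68, 9.05 and 9.78 in 4T1 tumours, a 7.82-fold difference (adjusted p = 1.07e-05). Its partner Cav2 was lower by -1.13 ± 0.17, on 1 of 2 probe sets since the other gave -0.21. Cavin1, Cavin2 and Cavin3 were lower by -1.32, -1.95 and -1.94. No 4T1 value of these genes reached a 67NR value. Endothelial cells are rich in caveolae, and 17 of 20 tested endothelial markers were lower in the same tumours, with summed list levels of 13.38 to 13.81 in 67NR and 12.08 to 12.42 in 4T1, so the share of either source in the caveolin values was not tested. In 66cl4 the mean was 12.05 for Cav1, near 67NR, and 7.21 for the endothelial gene Cdh5, near 4T1. These are single genes of their lists, and their bearing on the source was not tested.

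**Figure D1:**
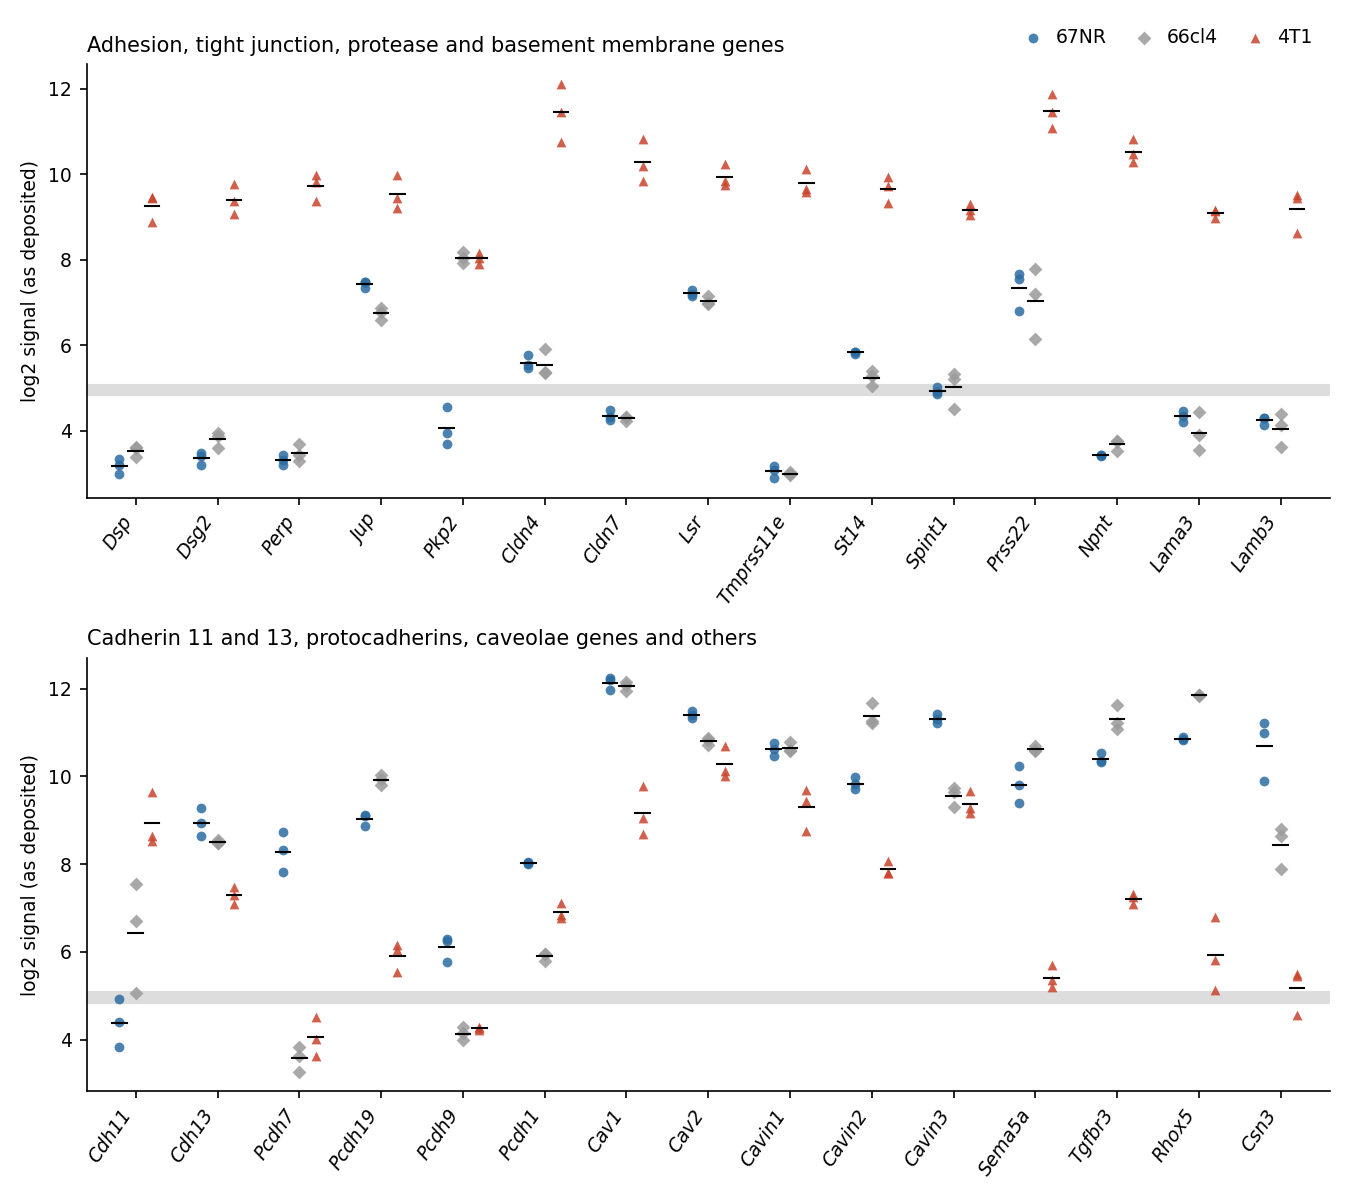
Log2 signal as deposited (vertical axis) of adhesion, protease, basement membrane, caveolae and other genes on each array of 67NR (circles), 66cl4 (diamonds) and 4T1 (triangles) tumours, with a line at the mean of 3 arrays. The grey band is the range of the array backgrounds, 4.83 to 5.08. In the upper panel every 4T1 value lies above every 67NR value, and in the lower panel every gene after Cdh11 has its 4T1 values below its 67NR values.

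Genes of cholesterol synthesis were nearly all higher in 4T1 tumours. The pathway turns acetyl units into mevalonate, then into isoprenoids and squalene, and finally into sterols, and the transcription factor Srebf2 controls most of its enzymes. All 20 measured members of the list were tested, 19 were higher and 1 lower, with a median of 1.24, and 16 of the 19 were kept with the file number. Hmgcs1, which makes the precursor of mevalonate, read 8.38, 8.61 and 8.68 in 67NR and 10.68, 10.74 and 10.84 in 4T1 tumours (2.19 ± 0.14, adjusted p = 2.6e-06). Its 66cl4 mean was 10.28. Idi1 and Fdps, the next isoprenoid steps, were higher by 2.54 ± 0.26 and 2.43 ± 0.21, and squalene epoxidase, Sqle, by 1.44 ± 0.19. Cyp51, the first demethylase of the sterol part, had the widest difference of the list, with 4.83, 5.79 and 5.88 against 8.53, 8.85 and 8.85. For each of these genes the groups did not overlap. Dhcr7, which carries out the last step, was the exception, at 8.56, 8.72 and 8.79 against 8.44, 7.99 and 7.85. It was lower by -0.60 ± 0.15 (adjusted p = 0.0114), a call lost with the file number, and its 66cl4 mean was higher than in either line, at 9.67. Srebf2 itself was higher by 0.87 ± 0.11. The 66cl4 mean of Idi1, 9.23, lay far above the 67NR values and did not pass the test against 4T1 (adjusted p = 0.3). The calls of Mvk, Tm7sf2 and Insig1 were lost with the file number. Mvk, at 0.29 to 0.35, also lost its call without array 2 of 4T1 or array 1 or 2 of 67NR, and Insig1, at 0.80 to 1.22, without array 1 or 2 of either line.

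Fatty acid genes moved in the same direction with fewer calls. Of 20 tested members 9 were higher and none lower, with a median of 0.33. Acsl4, which activates arachidonate for membrane lipids, was at 8.71, 8.71 and 8.58 against 10.98, 10.74 and 10.88, and Elovl7 was at least 9.34-fold higher. Fatty acid synthase, Fasn, and the desaturase gene Fads2 were higher by 0.89 ± 0.11 and 1.84 ± 0.16. Srebf1, the factor that controls many fatty acid genes, was not called (0.23 ± 0.11, adjusted p = 0.117).

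The CCAAT letters, ATTGG on the other strand, are bound by the factor NF-Y, which acts beside Srebf2 at sterol genes. They were searched after the cholesterol values had been seen. The promoters of Hmgcs1, at chr13:119690101-119690350, plus strand, and Idi1, at chr13:8885356-8885605, plus strand, are shown as the pair of early enzymes with wide differences, from RefSeq on GRCm38.p6 with the CCAAT letters of either strand in capitals.
Hmgcs1: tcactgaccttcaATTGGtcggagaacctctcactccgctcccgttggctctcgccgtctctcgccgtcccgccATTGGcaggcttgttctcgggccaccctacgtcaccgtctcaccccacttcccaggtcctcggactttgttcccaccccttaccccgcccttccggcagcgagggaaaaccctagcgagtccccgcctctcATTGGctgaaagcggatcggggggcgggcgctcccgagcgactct
Idi1: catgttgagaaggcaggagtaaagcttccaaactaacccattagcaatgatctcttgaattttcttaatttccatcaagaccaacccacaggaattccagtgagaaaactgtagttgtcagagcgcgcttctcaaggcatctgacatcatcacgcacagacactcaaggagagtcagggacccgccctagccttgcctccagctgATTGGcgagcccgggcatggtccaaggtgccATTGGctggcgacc

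Hmgcs1 holds 3 copies and Idi1 holds 2, each on the strand opposite to the gene. All 16 cholesterol genes with a matched promoter held the letters, or 100%, against 39.8% of the genes tested and 37.5% of the promoter table. Of these 16, 15 were higher and 1 lower, with a median of 1.12. The sterol response letters CACCCCAC, GTGGGGTG on the other strand, were in 1 of the 16 windows and in 3.57% of the genes tested.

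Glycolysis and oxygen-response genes were higher as a group: of 31 tested members, the whole measured list, 24 were higher and 1 lower, with a median of 1.07. Of the higher calls 16 were kept with the file number, and the lower call was lost. Phosphoglycerate kinase, Pgk1, read 11.79, 11.58 and 11.77 in 67NR and 13.12, 13.24 and 13.20 in 4T1 tumours. The carbonic anhydrase Car9, which helps cells export acid, was at 5.97, 5.21 and 5.10 against 9.98, 10.12 and 10.43, and Car12 was at least 7.1-fold higher. For Car9 the 66cl4 mean of 10.32 was at the 4T1 level (adjusted p = 0.704), whereas for Car12 it was at the 67NR level, 4.04. Egln3, an oxygen sensor and itself a target of the hypoxia factors, was higher by 3.08 ± 0.17, with a 66cl4 mean of 7.12. The 3 lines thus had different combinations of these genes. Ndufa4l2, another known target that pericytes also make, was not called (-0.66 ± 0.29, adjusted p = 0.105).

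The core letters of the hypoxia response, ACGTG or CACGT on the other strand, are shown in capitals in the promoters of Pgk1, at chrX:106186850-106187099, plus strand, and Car9, at chr4:43506776-43507025, plus strand, since both genes are textbook targets of the hypoxia factors. The sequences are RefSeq, GRCm38.p6.
Pgk1: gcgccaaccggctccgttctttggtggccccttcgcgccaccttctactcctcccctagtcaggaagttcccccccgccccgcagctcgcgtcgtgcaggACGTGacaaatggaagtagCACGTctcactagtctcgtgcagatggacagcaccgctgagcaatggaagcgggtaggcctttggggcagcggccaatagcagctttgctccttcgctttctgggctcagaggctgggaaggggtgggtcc
Car9: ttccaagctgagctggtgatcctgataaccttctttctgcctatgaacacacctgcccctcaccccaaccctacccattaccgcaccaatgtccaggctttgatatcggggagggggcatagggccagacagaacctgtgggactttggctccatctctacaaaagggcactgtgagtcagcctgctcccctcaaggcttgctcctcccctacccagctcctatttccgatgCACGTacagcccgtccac

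Pgk1 has 2 copies, which begin at -150 and -131, and Car9 has 1 at -18. The letters were in 18 of 29 matched members of the list, or 62.1%, in 24.2% of the genes tested and in 18.5% of the promoter table. Among the 18, 15 were higher and none lower, with a median of 1.10, and among the 11 without the letters 8 were higher and 1 lower, with a median of 1.01. Members with and without the letters thus had similar medians. Among genes higher by at least 8-fold the letters were in 11 of 106, or 10.4%.

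Oxidative phosphorylation genes showed smaller differences, mostly in the other direction. Of 38 tested members 14 were lower and 2 higher, with a median of -0.19. Ndufs7, a core subunit of complex I, was at 11.09, 11.28 and 11.23 in 67NR and at 9.96, 10.19 and 10.31 in 4T1 tumours. Ndufs4 was lower by -1.01, Cyc1, of complex III, by -0.75, and Atp5d, of the ATP synthase, by -0.72. Those 4 were the members whose call was kept with the file number. The other 10 lower calls and both higher calls were lost with it.

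Several genes of the p53 pathway and the cell cycle brake were lower in 4T1 tumours. p53 induces Cdkn1a, Ccng1, Phlda3 and its own inhibitor Mdm2 after damage, and Cdkn2a encodes p16 and p19Arf, brakes of the cell cycle upstream of Rb and p53. Of 22 tested members 10 were lower and 6 higher, with a median of -0.07. These are 45.5% and 27.3%, against 20.5% and 19.4% of all genes tested. Cdkn2a was at 6.29, 6.90 and 6.68 in 67NR and not above background in 4T1, at 3.69, 3.79 and 4.02, or in 66cl4, with a mean of 3.92. It was at least 3.14-fold lower. Its neighbour Cdkn2b was not called (0.37 ± 0.22, adjusted p = 0.213). Ccng1 read 10.80, 11.22 and 11.23 against 8.98, 9.10 and 8.88, and its other probe sets differed in the same direction. Phlda3, a brake on Akt, was at 10.05, 10.26 and 10.13 against 8.30, 8.19 and 8.06. Mdm2 was lower by -1.07 ± 0.10 and Cdkn1a by -1.42 ± 0.28, and none of the 4T1 values of these 4 genes reached a 67NR value. The 66cl4 mean of Mdm2, 9.31, was close to 4T1 and that of Sesn1, 10.52, above both lines. Bbc3 and Pmaip1, p53 targets that promote cell death, were not called. All 6 higher members, among them Fas, Tnfrsf10b and Ei24, lost their call with the file number, while 8 of the 10 lower members kept it and Trp53inp1 and Btg2 did not.

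Targets of Nrf2 did not move one way. Nrf2 is a transcription factor that answers oxidative and electrophilic stress. Of 22 tested members 8 were lower and 6 higher, or 36.4% and 27.3%, against 20.5% and 19.4% of all genes tested. The median was -0.10, and 5 of the lower and 1 of the higher calls were kept with the file number. The enzymes named next, which conjugate or detoxify reactive compounds, were chosen for their wide differences and form no list. Microsomal epoxide hydrolase, Ephx1, was at 10.44, 10.74 and 10.81 in 67NR and at 6.04, 6.64 and 6.44 in 4T1 tumours, a 19.6-fold difference (adjusted p = 2.32e-07). The glutathione transferase Gstm1 read 10.02, 10.23 and 10.35 against 5.79, 6.59 and 5.50. Its probe set may read close relatives, and its other probe sets gave -4.18 to -1.13. Gstt1, of another class, was at 10.34, 10.68 and 10.88 against 6.42, 5.64 and 5.97, and Gsta4 was lower by -2.41 ± 0.22. The aldehyde dehydrogenase Aldh3a1 was not above background in 4T1 and at least 9.72-fold lower. In 66cl4 the means were 9.96 for Ephx1, 8.99 for Gstm1 and 9.82 for Gstt1, below every 67NR value but far above the 4T1 values. The 66cl4 mean of Aldh3a1 was 10.90. For these genes 4T1 thus stood lowest of the 3 lines. The classical Nrf2 target Nqo1 was not called (0.37 ± 0.19, adjusted p = 0.15), and the higher call of Gclm was lost with the file number.

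**Figure D2:**
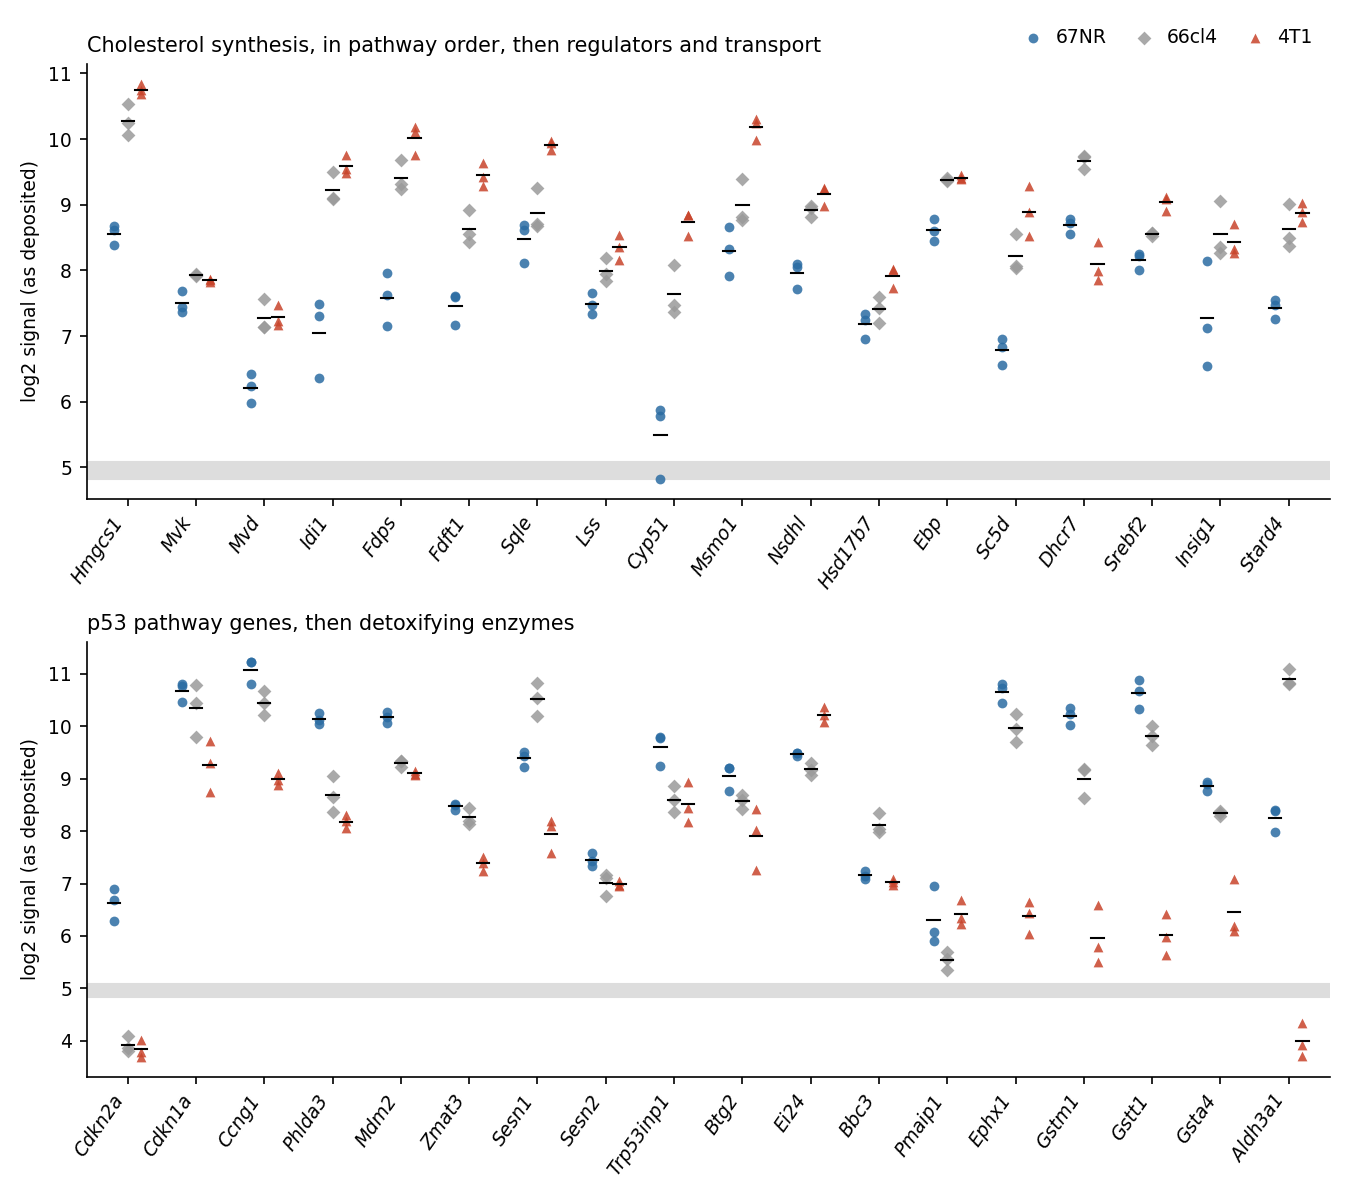
Log2 signal as deposited (vertical axis) of cholesterol genes in pathway order (upper panel) and of p53 pathway and detoxifying genes (lower panel) on each array, with circles for 67NR, diamonds for 66cl4, triangles for 4T1, lines at the means and the background range of 4.83 to 5.08 in grey. From Hmgcs1 to Sc5d every 4T1 value lies above every 67NR value, and Dhcr7 runs the other way. Ephx1, Gstm1, Gstt1, Gsta4 and Aldh3a1 are lowest in 4T1.

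Secreted factors that act on white blood cells differed by member. Of 26 tested colony-stimulating factor and interleukin genes 15 were higher and 7 lower, with a median of 0.73. Kept with the file number were 7 of the higher and 3 of the lower calls. Tslp, an epithelial cytokine that acts on dendritic cells and basophils, was at 3.39, 3.55 and 3.62 in 67NR, not above background, and at 7.47, 8.45 and 10.14 in 4T1 tumours. It was at least 13.4-fold higher, with a wide spread among the 4T1 tumours. The subunit gene Il23a read 7.82, 7.77 and 7.62 in 4T1 and was at least 6.94-fold higher, with 66cl4 at 3.78. Il1a, an alarm cytokine, was at 6.00, 7.95 and 7.79 and at least 4.95-fold higher. Related factors could differ in opposite directions. Il33, an alarm cytokine of the interleukin 1 family, was lower by -2.33 ± 0.42, and stem cell factor, Kitl, which supports mast cells, was at 11.91, 12.10 and 12.06 in 67NR and at 10.47, 8.24 and 10.09 in 4T1 tumours. Il11 was higher by 1.08 and Il6 lower by -1.26. Csf1, the growth factor of macrophages, was not called (-0.04 ± 0.15, adjusted p = 0.846). The calls of Il33, Il11 and Il6 were lost with the file number.

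Chemokine calls went both ways in the CXC list and were only lower in the CC list. Of 21 tested CXC genes and receptors 8 were higher and 5 lower, or 38.1% and 23.8%. Of 21 tested CC genes 7 were lower, or 33.3%, and none higher. Over all genes tested 19.4% were higher and 20.5% lower, so the share of lower CXC genes was close to that of all genes. Kept with the file number were 3 of the higher and 1 of the lower CXC calls, and 2 of the CC calls. Ccl2, which draws monocytes, was at 10.48, 11.78 and 11.92 in 67NR and at 7.50, 7.39 and 7.65 in 4T1 tumours, 14.7-fold lower (adjusted p = 5.77e-05). Its neighbour Ccl7 was lower by -2.54 ± 0.44, and Cxcl12, the stromal ligand of Cxcr4, by -2.65 ± 0.32. The interferon-induced ligands Cxcl10 and Cxcl11 were higher by 1.56 and 3.30. The neutrophil ligands disagreed: Cxcl2 and Cxcl3 were higher by 3.04 and 2.65, while Cxcl5 was lower by -1.03. The calls of Ccl7, Cxcl2, Cxcl3 and Cxcl5 were lost with the file number.

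Genes that restrain T cells were higher in part. Of 16 tested members 8 were higher and 2 lower. Arginase, Arg1, which depletes arginine, was at 6.41, 6.94 and 6.44 in 67NR and at 10.75, 12.60 and 12.90 in 4T1 tumours, 44.7-fold higher. Its 66cl4 mean was 11.18, within the 4T1 range. Ido1, which breaks down tryptophan, read 5.91, 5.35 and 5.09 against 7.78, 8.23 and 9.66, and Cd274, the ligand PD-L1, was higher by 1.77 ± 0.25. Cyclooxygenase 2, Ptgs2, which starts prostaglandin synthesis, was at 5.43, 5.90 and 6.06 against 8.26, 9.68 and 9.49. Of 17 tested prostaglandin and leukotriene genes, however, 9 were lower and 2 higher, among them the leukotriene enzymes Alox5 and Lta4h by -1.20 and -1.03. With the file number 2 of the 9 lower calls and both higher calls were kept. The acute-phase gene Lcn2 was at 7.89, 7.19 and 5.21 against 11.91, 12.01 and 12.17, with a wide spread within 67NR. Saa3 was higher by 4.20 ± 0.70, a call that was lost with the file number.

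Interferon-induced GTPases, which attack pathogens inside cells, and the class I presentation pathway were higher in 4T1 tumours. Of 9 tested GTPases 8 were higher and none lower, with a median of 1.10, and 4 of the calls were kept with the file number. Igtp was at 10.23, 10.03 and 9.56 in 67NR, at 11.26, 11.54 and 11.69 in 4T1 tumours, and at a mean of 7.47 in 66cl4. Irgm1 read 9.89, 9.67 and 9.50 against 10.48, 10.93 and 10.96, and its call was lost with the file number (adjusted p = 0.0638). Of 16 tested class I genes 13 were higher and none lower, and 8 of the calls were kept with the file number. The immunoproteasome subunit Psmb9 was higher by 1.58 ± 0.12, the peptide pump genes Tap1 and Tap2 by 1.20 and 1.27. The class II gene H2-Aa was not called (-0.10 ± 0.32, adjusted p = 0.835), while the class II activator Ciita was higher by 1.16.

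The interferon-response letters are GAAA, any 2 bases and GAAA again, and on the other strand TTTC, any 2 bases and TTTC. They were chosen after these values had been seen and are in capitals in the promoters of Igtp, at chr11:58199306-58199555, plus strand, and Irgm1, at chr11:48871421-48871670, minus strand, shown as 2 GTPase genes with a match. The sequences are RefSeq, GRCm38.p6.
Igtp: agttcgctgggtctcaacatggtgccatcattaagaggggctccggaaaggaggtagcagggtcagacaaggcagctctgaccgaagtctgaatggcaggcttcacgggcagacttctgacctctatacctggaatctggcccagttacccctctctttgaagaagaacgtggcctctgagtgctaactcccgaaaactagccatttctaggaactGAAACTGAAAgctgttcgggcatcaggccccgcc
Irgm1: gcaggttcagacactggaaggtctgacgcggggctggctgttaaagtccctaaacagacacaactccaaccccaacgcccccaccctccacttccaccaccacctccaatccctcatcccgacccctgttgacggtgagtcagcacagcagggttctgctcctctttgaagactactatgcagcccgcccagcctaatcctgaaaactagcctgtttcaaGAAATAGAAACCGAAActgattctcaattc

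Igtp has 1 match and Irgm1 has 2 that overlap. The letters were in 6 of 7 matched GTPase promoters, or 85.7%, in 7 of 19 antiviral interferon-stimulated genes, or 36.8%, in 3.12% of the genes tested and in 3.46% of the promoter table.

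Growth factor genes were called in both directions. Of 11 tested EGF family genes 4 were higher and 3 lower, or 36.4% and 27.3%, against 19.4% and 20.5% of all genes tested. With the file number 1 of the higher and 2 of the lower calls were kept. Epiregulin, Ereg, was at 8.61, 9.37 and 9.51 in 67NR and not above background in 4T1, at 4.19, 4.89 and 4.45, at least 18.3-fold lower. Its 66cl4 mean was 3.85, also not above background. The receptor gene Erbb3 was higher by 1.81 ± 0.17, and Egfr was not called (-0.25 ± 0.16, adjusted p = 0.251). Tgfa was higher by 0.73 on its brightest probe set, a call that was lost with the file number, and by up to 4.73 on another. Fgfbp1, which releases FGFs from the matrix, was at 3.46, 3.44 and 3.50 against 10.13, 9.64 and 9.70, at least 29.4-fold higher, with 66cl4 at 3.66. The receptor Fgfr1 was lower by -2.47 ± 0.37, a call that was lost with the file number. In the PDGF list Pdgfrl, a receptor-like gene, was at 5.31, 5.12 and 5.12 against 10.41, 11.29 and 10.80, and the ligand gene Pdgfc was higher by 1.85 ± 0.46. The receptors Pdgfra and Pdgfrb were lower by -1.65 and -1.13, the latter a call that was lost with the file number.

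TGF-beta ligand and feedback genes were mostly higher: 12 of 22 tested members were higher and 2 lower. Kept with the file number were 7 of the higher calls and 1 of the lower. Inhba, the subunit of activin A, was at 6.71, 6.68 and 6.51 in 67NR and at 8.81, 10.06 and 9.01 in 4T1 tumours, and the ligand Tgfb3 was higher by 2.08 ± 0.15. The inhibitory Smad7, a feedback target, was higher by 1.47 ± 0.18 and the matrix gene Ccn2, another target, by 2.73 ± 0.38. The co-receptor Tgfbr3 was the main exception, at 10.53, 10.33 and 10.36 against 7.08, 7.25 and 7.31, with 66cl4 at 11.30. No value of Tgfbr3 overlapped between the lines.

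Wnt genes were also more often higher than lower, 12 against 1 of 31 tested, with a median of 0.34. The ligand genes Wnt7b and Wnt10a were at 6.94, 7.48 and 7.90 against 10.93, 10.57 and 10.65, and at 5.46, 5.64 and 5.64 against 8.18, 9.65 and 9.45. Inhibitors were higher too, Sfrp1 by 3.32 ± 0.28 and Dkk3 by 2.16 ± 0.32, as was the receptor Fzd7 by 2.37 ± 0.16. The usual readouts of beta-catenin activity, Axin2 and Lef1, were not called (0.34 ± 0.28 and -0.03 ± 0.16, adjusted p = 0.361 and 0.909). Among Notch genes 7 of 17 tested were lower and 3 higher, or 41.2% and 17.6%, against 20.5% and 19.4% of all genes tested. Notch4 and Dll4, both used by endothelium, were lower by -2.22 and -1.17, and Notch3, of pericytes, by -1.72, whereas the ligand gene Dll1 was higher by 1.67 ± 0.15.

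Guidance and vessel ligands divided too. Of 22 tested semaphorins and receptors 9 were lower and 6 higher, or 40.9% and 27.3%, against 20.5% and 19.4% of all genes tested. With the file number 6 of the lower and 2 of the higher calls were kept. Sema5a was at 9.39, 10.24 and 9.81 in 67NR and at 5.19, 5.35 and 5.69 in 4T1 tumours, 21.1-fold lower, with 66cl4 at 10.63. Sema3c and Sema3g were not above background in 4T1, at least 10.6-fold and at least 4.04-fold lower. Sema3e was at least 6.27-fold higher and Sema4c higher by 1.88 ± 0.18. The lymphatic growth factor Vegfc was at 3.52, 3.87 and 4.12 against 7.57, 8.97 and 9.45, at least 13.2-fold higher, and its 66cl4 mean of 7.58 did not pass the test against 4T1 (adjusted p = 0.0625). The main vessel growth factor, Vegfa, was not called (0.30 ± 0.44, adjusted p = 0.625).

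Matricellular genes, whose products modulate how cells respond to the matrix, were higher in 9 and lower in 5 of 17 tested. These are 52.9% and 29.4%, against 19.4% and 20.5% of all genes tested. Kept with the file number were 6 of the higher and 2 of the lower calls. The lower members were Smoc1, Sparcl1, Ccn3 and Sparc, by -1.82, -1.35, -1.21 and -0.54, and Tnxb, which was not above background in 4T1. Tenascin C, Tnc, was at 8.17, 8.25 and 8.12 in 67NR and at 11.49, 12.66 and 12.06 in 4T1 tumours, and thrombospondin 2, Thbs2, was at 5.31, 4.96 and 5.53 against 9.31, 11.07 and 10.25. Ccn4 was higher by 3.80 ± 0.43. The anchoring collagen gene Col7a1 of epithelial basement membranes and the fibril-associated Col12a1 were higher by 3.35 ± 0.29 and 4.87 ± 0.50, and the prolyl hydroxylase P4ha2 by 2.25 ± 0.28. Postn and Thbs1 were higher by 1.98 and 1.37, calls that were lost with the file number. On array 1 the 4T1 tumour was the lowest of its line for Tnc, Thbs2, Postn and Thbs1, and still above all 67NR values. Of 13 tested fibroblast markers 6 were higher and 4 lower, so that list did not move one way. Its summed levels were 12.77 to 13.52 in 4T1 and 12.90 to 13.01 in 67NR. The cell source of the matrix values was not tested.

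Genes that mark identity or silencing were among the widest differences. Rhox5, a homeobox gene of the X chromosome that is normally active in the germline and placenta and is silenced by DNA methylation elsewhere, was at 10.83, 10.89 and 10.84 in 67NR and at 5.13, 5.82 and 6.80 in 4T1 tumours, 30.6-fold lower. Its 66cl4 mean was 11.85. Hoxa5, a patterning gene active in the mammary gland, was at 6.55, 6.88 and 6.60 against 10.76, 10.38 and 10.21, and Hoxa2 was at least 2.9-fold higher. Of 17 tested Hox genes 5 were higher and 4 lower, or 29.4% and 23.5%, not far from the 19.4% and 20.5% of all genes tested. The milk protein gene Csn3 was at 9.90, 10.99 and 11.21 against 5.46, 4.56 and 5.49. The imprinted gene Phlda2 was higher by 2.01 ± 0.24, while Igf2 was not called (-0.21 ± 0.46, adjusted p = 0.763). S100a4, a gene often tied to metastasis, was lower in 4T1, at 14.42, 14.48 and 14.54 against 12.41, 11.81 and 12.63, and S100a14 was higher by 2.40 ± 0.16.

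Other genes with extreme differences belonged to no list described above. Tnnt2, a troponin, was 71.1-fold higher in 4T1, with 67NR values of 6.44, 5.18 and 4.36, and Scara3, a scavenger receptor, at least 24.4-fold higher. Padi4, an enzyme of neutrophils, was at least 29-fold higher, but its 66cl4 mean of 9.02 was near the 4T1 values of 10.06, 9.74 and 9.59. Acpp, a phosphatase gene, and Chga, a marker of neuroendocrine cells, were 25.3-fold and 24.7-fold lower. The other probe sets of Acpp gave differences of -3.54 to -2.51. Cox7b2 and Klhl4 were not above background in 4T1 and at least 10.2-fold and at least 16.1-fold lower. In 66cl4 the means were 8.92 for Cox7b2, above the 67NR values, and 3.66 for Klhl4, near 4T1. For Acpp and Chga the 66cl4 means were 5.67 and 6.14, below every 67NR value.

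Markers of host cells differed between the lines in both directions. Of 13 tested mast cell markers, from 14 measured, 11 were lower and 1 higher in 4T1, with a median of -2.53, and the summed list level was 14.11 to 14.59 on 67NR and 9.47 to 9.87 on 4T1 arrays. The mast cell proteases had the widest differences of the list: Cpa3 was 114-fold lower, with 1 of 3 4T1 values above background, and Tpsab1, Tpsb2, Cma1 and Mcpt4 were 75-fold, 55.6-fold, 57.6-fold and 42.3-fold lower. Their 66cl4 means were 6.18, 6.67, 6.49, 6.39 and 5.39 in that order, against 67NR means of 10.45 to 12.54. For these genes 67NR thus stood apart from both other lines. The receptor gene Kit was at 9.14, 8.86 and 8.70 against 6.35, 6.26 and 6.49, and the IgE receptor chain Fcer1a was not above background in 4T1 and at least 11.8-fold lower. Fcer1a had a 66cl4 mean of 3.67, also not above background. Mcpt8, a protease of basophils, was the 1 higher member, at 5.10, 4.49 and 4.83 against 7.52, 7.94 and 6.05. The mast cell growth factor Kitl, described above, was lower in the same tumours, and its bearing on the mast cell values was not tested. Of 14 tested resident macrophage markers 11 were lower and none higher, with summed levels of 14.05 to 14.44 against 11.84 to 13.28, and 3 of the calls were kept with the file number. The lectins Fcna and Clec10a were lower by -3.48 ± 0.21 and -3.38 ± 0.48, the latter a call that was lost with the file number. Of 14 tested neutrophil markers, from 16 measured, 8 were higher and none lower, with summed levels of 11.19 to 11.98 against 13.50 to 13.80. Of the 8 calls 4 were kept with the file number, and the median of 1.14 became 0.47. The list's granulocyte-specific members were not uniform: Csf3r, Cxcr2 and Elane were not called (adjusted p = 0.53, 0.117 and 0.985), and Camp stayed near background in both lines. Among 18 tested T and NK cell markers 5 were lower and none higher, with Cd4 lower by -1.29 and the NK receptor Ncr1 by -1.84. The share lower, 27.8%, was close to the 20.5% of all genes tested, and 3 of the calls were kept with the file number.

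**Figure D3:**
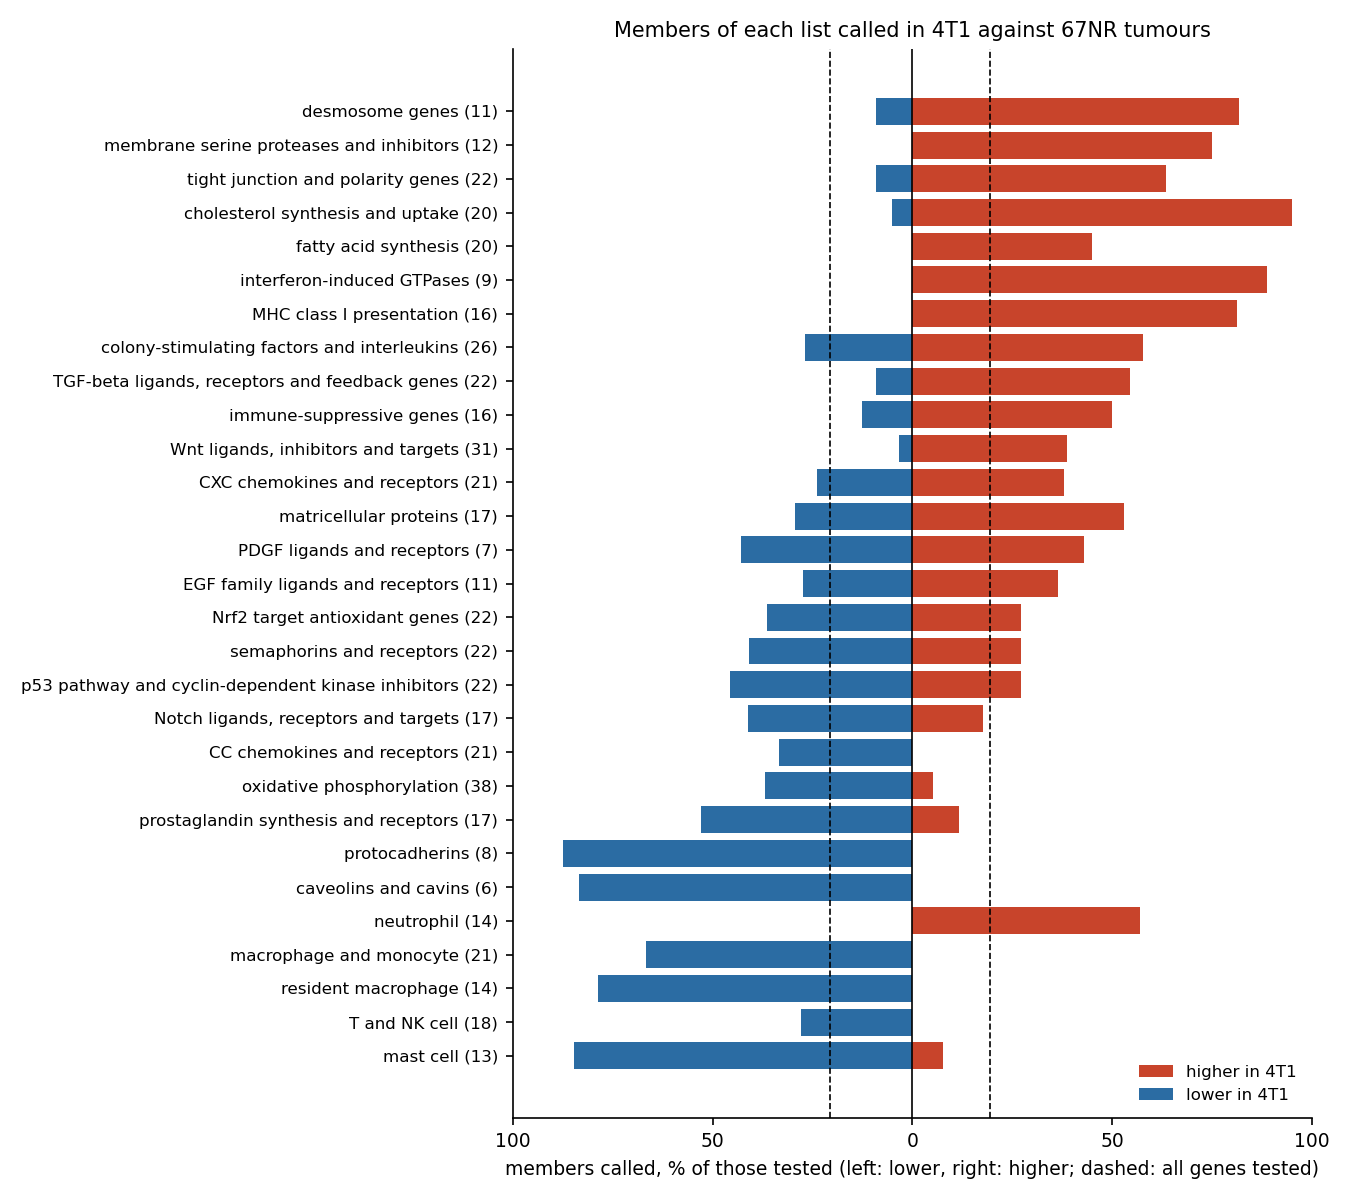
Share of the tested members of each list shown (number in brackets) that were called higher (right, red) or lower (left, blue) in 4T1, in percent. The lists are a selection from 76, and the keratin, hypoxia and endothelial lists are among those not shown. Dashed lines mark the shares over all 13409 genes tested, 19.4% higher and 20.5% lower. Cholesterol genes reach 95% higher, and protocadherins and mast cell markers lie mostly on the lower side.

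Tumours of 4T1 differed more among themselves than those of 67NR. A range over 1 on the log2 scale among the 3 arrays was seen for 742 genes in 4T1, or 5.53%, for 391 in 66cl4, or 2.92%, and for 226 in 67NR, or 1.69%. Arrays of 4T1 correlated at 0.972 to 0.979 and those of 67NR at 0.986 to 0.991 across genes, which are not independent replicates. Immunoglobulin genes varied widely: Ighm was at 11.95, 14.49 and 8.42 in 4T1 tumours and at 11.23, 9.67 and 12.10 in 67NR, and Jchain at 10.49, 11.68 and 5.71 against 9.43, 7.65 and 9.57. Neither gene was called (adjusted p = 0.734 and 0.841). The B cell gene Cd79a followed the same order among the 4T1 arrays, at 5.67, 6.69 and 5.31. RNA quality can be judged in part from the 3′ and 5′ probe sets of actin, whose difference was 0.58 to 0.83 on 4T1 and 0.71 to 0.92 on 67NR arrays.

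Called genes were not spread evenly over the chromosomes. On chromosome 8, 42.4% of the tested genes were higher and 9.83% lower in 4T1, with a median difference of 0.27, against 19.4% and 20.5% over all genes. The X chromosome had 38.8% higher and 17.2% lower and chromosome 19 had 35.6% and 13.2%. Chromosome 10 was the reverse, with 10.6% higher and 39.6% lower and a median of -0.24, and chromosomes 15 and 13 had 32.7% and 28.3% lower. With the file number as a covariate the shares shrank, to 24.4% higher and 4.78% lower on chromosome 8 and to 7.12% higher and 17.9% lower on chromosome 10, and the medians became 0.33 and -0.24. Against 66cl4, chromosome 8 kept a positive median in 4T1 of 0.14, chromosome 10 had a median of -0.01 and the X chromosome one of -0.11. The 4T1 tumours thus differed from both other lines in the same direction on chromosome 8, and on chromosome 10 the low median was seen only against 67NR in these 2 comparisons, which share the 4T1 arrays. Numbers of gene copies were not measured.

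**Figure D4:**
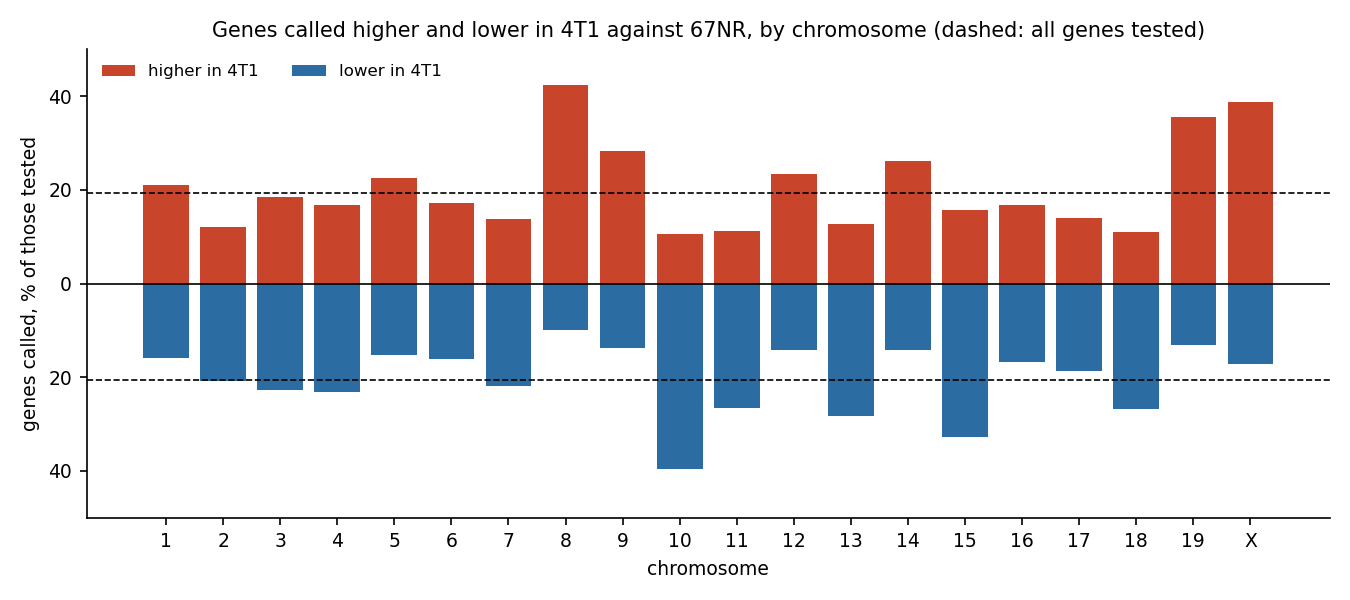
Share of the tested genes of each chromosome called higher (upward, red) or lower (downward, blue) in 4T1, in percent, with dashed lines at the shares over all genes tested. Chromosome 8 has the tallest upward bar at 42.4% and chromosome 10 the deepest downward bar at 39.6%.

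Medians along these chromosomes were shifted over much of their length, and the windows at the extremes were looked up. In windows of 41 neighbouring tested genes, a size chosen after the data had been seen, the lowest window of chromosome 10 ran from Pawr to Hmga2, held Mdm2, and had 31 genes lower and 1 higher, with a median of -0.72. Its median was -0.03 in 4T1 against 66cl4. The highest window of chromosome 8 ran from Nrg1 to Snx25 and had 30 genes higher and 3 lower, with a median of 0.72, and 0.41 against 66cl4. On chromosome 13 the window from Ppwd1 to Parp8 had 25 genes lower and 5 higher and a median of -0.66, and -0.35 against 66cl4, and on chromosome 19 the window from Cwf19l1 to Wbp1l had 24 higher and none lower, with a median of 0.44, and -0.25 against 66cl4. Of the windows on chromosome 8, which overlap one another, 94.6% had a median above 0, against 14% on chromosome 10 and 3.38% on chromosome 13.

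**Figure D5:**
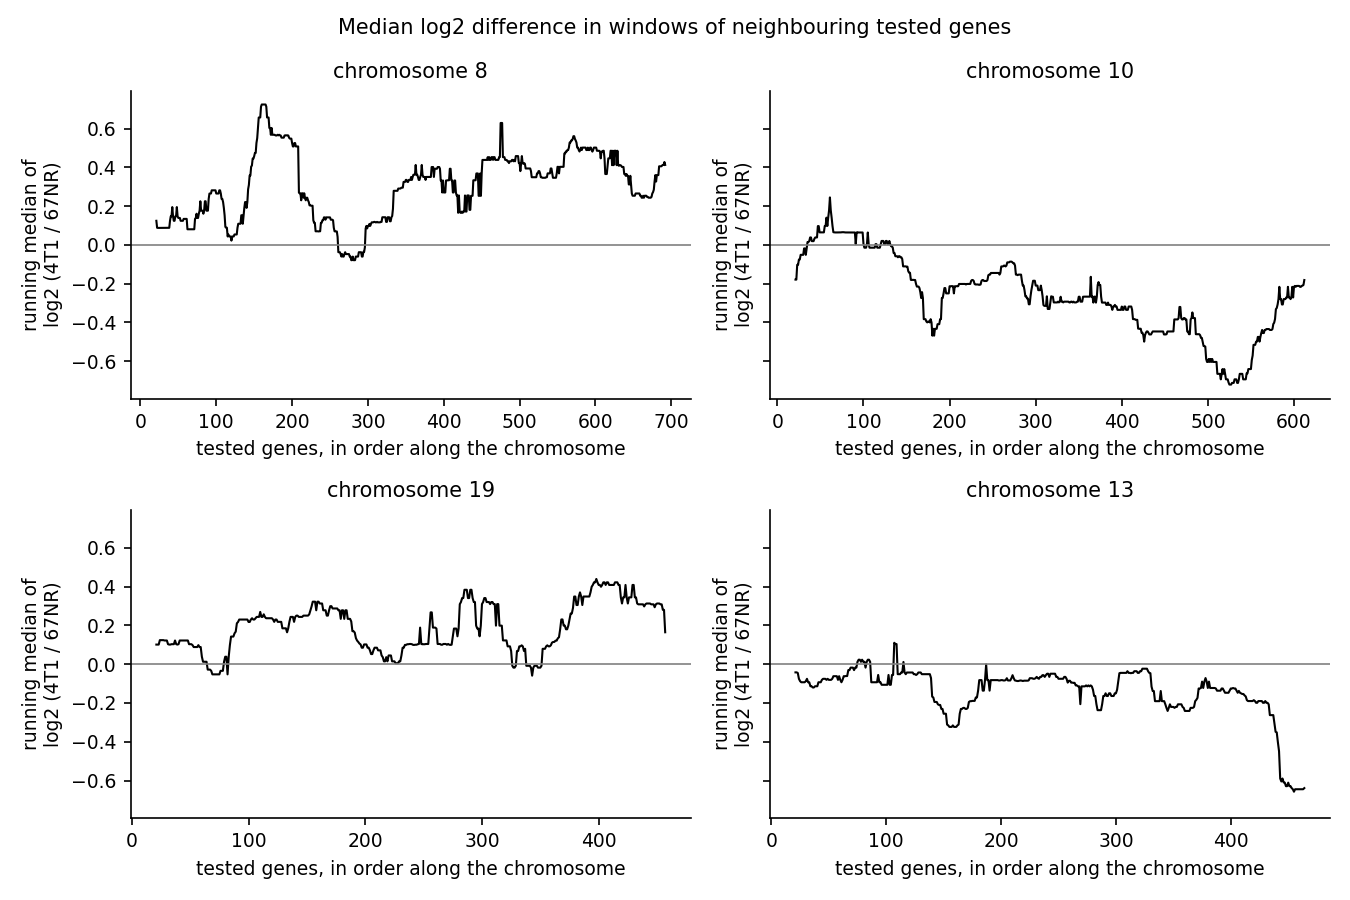
Median log2 difference, 4T1 over 67NR, in windows of 41 neighbouring tested genes (vertical axis) along chromosomes 8, 10, 19 and 13, by the rank of the central gene (horizontal axis). The line runs mostly above 0 on chromosomes 8 and 19 and mostly below 0 on chromosomes 10 and 13, with extremes of 0.72 on chromosome 8 and -0.72 on chromosome 10.

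Runs of at least 6 consecutive tested genes called in one direction were found 17 times. On chromosome 10 a run of 6, Krr1, Glipr1, Caps2, Atxn7l3b, Tph2 and Tbc1d15, was lower with a median of -2.16, and the call of Atxn7l3b was lost with the file number. Glipr1 was at 11.46, 11.96 and 11.86 in 67NR and at 8.33, 8.96 and 8.87 in 4T1 tumours, and Tph2 was not above background in 4T1. On chromosome 9 a run of 7 held the metalloproteinase genes Mmp13, Mmp12, Mmp3, Mmp10 and Mmp8, which lie together, and was higher with a median of 1.58. Mmp13, a collagenase, was at 6.75, 7.37 and 5.66 against 10.47, 12.24 and 11.39. Of the 7 calls 4 were kept with the file number, and those of Mmp12 and Mmp8 were among the lost. Mmp3 lost its call without array 1 of 67NR (1.39). On chromosome 17 a run of 6 spanned the antigen presentation genes H2-DMa, H2-DMb2, Psmb9, Tap1, Psmb8 and Tap2, higher with a median of 1.42, and all 6 were kept with the file number. Further runs joined list members to neighbours of other function. On chromosome 8 a run of 7 from Dhodh to Marveld3 was higher with a median of 0.81, kept in all 7. On chromosome 7 a run of 7 from Ifitm1 to Ano9 included Pkp3 and had a median of 1.46. On chromosome 8 Pdgfrl closed a run of 6 with a median of 1.29.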

How the data were processed

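RNA of 9 laser-captured tumours was measured on single-colour arrays with 45101 probe sets. The values are log2 signals as the authors deposited them (2.42 to 14.8). Their normalization and software are not given in the sources used here. They were not scaled further. Of the probe sets, 34945 were annotated to 1 gene, 932 to several, and 9224 were unnamed here. Symbols were updated through Entrez identifiers to RefSeq GRCm38.p6, which 34741 matched. The brightest probe set stood for its gene.

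Genes above the 40th percentile on at least 3 arrays were tested by eBayes after lmFit on 3 group means (limma 3.58.1, R 4.3.3; 6 residual and 3.63 prior degrees of freedom, two-sided, Benjamini-Hochberg adjustment over 13409 genes). The fit was tested on simulated data. The mice are separate, but p-values measure only the spread between these 9 tumours, and the number of arrays limits the precision.

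Members and gene lists were chosen with earlier results of these data known. The text names the 15 highest and 15 lowest called genes, listed genes (marked or called in order of p) and genes of runs. The windows of 41 genes and the interferon-response, CCAAT and CACCCCAC letters were added after seeing the data. Promoter coordinates are those of the RefSeq table, and motif matches are descriptions. Alternatives covered the probe set, filter, scaling, covariates, array weights, the replicate number as a block, and each array left out.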

Additional observations from a re-analysis of the deposited data

How the results depend on the processing

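When the scan file number entered as a covariate, 2661 genes were called, 1469 higher and 1192 lower in 4T1, and with the hybridization controls 2151, 1151 and 1000, against 5347, 2603 and 2744. Line and file number are largely confounded, and the hybridization controls also differed between the lines. Lost power and a part of these variables in the calls therefore cannot be told apart. When 1 array was left out, 4429 to 5256 genes were called, 2127 to 2719 higher and 2302 to 2637 lower. The other alternatives gave 4896 to 6069. Fitted with the replicate number as a block, 5057 genes were called, 2455 higher and 2602 lower. Arrays with the same number did not deviate together (r = -0.115, -0.104 and -0.096), so the numbers were not taken as pairs. Of the 1124 named or listed genes, 1 reversed: Lgr6 was lower by -0.66 on its brightest probe set and higher by 0.74 on the probe set with the highest variance. The cause was not tested. Genes near background have only a bound.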
